A study of Mus musculus with 2 samples.

Results

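The 44 genes described here encode nuclear receptors, the transcription factors that read steroid and thyroid hormones, retinoids, fatty acids, sterols and related ligands. They were taken by name from a fixed list that covers 18 subfamilies, and all 44 were found among the 43346 mouse genes of the deposited tables, of which 21474 are protein-coding. The tissue was kidney of healthy B6NCrl mouse embryos aged 16.5 days, with no treatment named, and its total RNA was sequenced. The samples form 1 group of 2 libraries, given as biological replicates 1 and 2. Each was a pool of male and female embryos: 41 were combined for replicate 2, and for replicate 1 the sources used here give no number. There is no second tissue, age or treatment, so levels are described within this tissue and the pools are set side by side, with no test and no p-value.

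A nuclear receptor typically joins a DNA-binding domain of zinc fingers to a ligand-binding domain that exchanges corepressors for coactivators when its ligand arrives. Steroid receptors wait on chaperones for their hormone and bind DNA as homodimers, whereas receptors for retinoic acid, thyroid hormone, vitamin D, fatty acids and oxysterols bind as heterodimers with a retinoid X receptor (RXR). In the embryonic kidney, retinoic acid made in the stroma acts on ureteric bud branching, and in the mature organ the mineralocorticoid and vitamin D receptors govern sodium and calcium handling.

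RXR heterodimers recognise repeats of a core hexamer related to AGGTCA, and the spacer between repeats differs with the partner. A direct repeat with a spacer of 5 nt is the classical element of the retinoic acid receptors (RARs). The hexamer AGGTCA, with G also allowed at the opening base and T at the third, was searched on both strands of RefSeq promoters (GRCm38.p6), from 250 bases before to 50 bases after each start site. The table held 61 promoters of 41 of the receptor genes, and Nr3c1, Nr5a1 and Thra were not among them. A direct repeat with a spacer of 5 nt stood in 1 of the 61, that of Rarb, against 0.0974% of all 32851 promoters. Spacers of 1, 2, 3 and 4 nt gave 0 of 61, against 0.222%, 0.268%, 0.0396% and 0.0822% of all promoters. Such repeats are too rare for 61 promoters to rank the spacers. At least 1 hexamer stood in 27 of the 61 receptor promoters (44.3%), close to the 43.7% of all promoters. The bases before the start are printed for promoters whose transcripts are compared further on, all on the minus strand, 5′ to 3′. Capitals mark the repeat in Rarb, where the first base of the repeat lies 53 bases before the start site, and the hexamer TGACCT, the reverse complement of AGGTCA, in the upstream promoter of Rarg. A further hexamer of Rarb, gggtca, is left in lower case. The Rarb bases lie at chr14:16575477-16575726, the upstream Rarg bases at chr15:102257523-102257772, the downstream ones at chr15:102246501-102246750, and those of the short Nr2f2 transcript at chr7:70366747-70366996.
Rarb: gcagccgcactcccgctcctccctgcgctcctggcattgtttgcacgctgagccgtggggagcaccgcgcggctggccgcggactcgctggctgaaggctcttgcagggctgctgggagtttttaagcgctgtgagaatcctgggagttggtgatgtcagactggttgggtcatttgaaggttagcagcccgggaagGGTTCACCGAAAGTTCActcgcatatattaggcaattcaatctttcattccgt
Rarg upstream: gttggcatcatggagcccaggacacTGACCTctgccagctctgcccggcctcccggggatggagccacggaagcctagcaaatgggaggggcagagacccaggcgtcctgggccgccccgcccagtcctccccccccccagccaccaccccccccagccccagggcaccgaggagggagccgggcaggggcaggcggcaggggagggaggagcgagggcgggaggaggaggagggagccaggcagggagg
Rarg downstream: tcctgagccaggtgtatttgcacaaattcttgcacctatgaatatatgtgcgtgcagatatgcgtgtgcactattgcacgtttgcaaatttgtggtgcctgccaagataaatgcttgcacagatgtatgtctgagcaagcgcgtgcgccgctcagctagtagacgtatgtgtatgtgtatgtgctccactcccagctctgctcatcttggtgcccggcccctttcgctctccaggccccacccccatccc
Nr2f2 short transcript: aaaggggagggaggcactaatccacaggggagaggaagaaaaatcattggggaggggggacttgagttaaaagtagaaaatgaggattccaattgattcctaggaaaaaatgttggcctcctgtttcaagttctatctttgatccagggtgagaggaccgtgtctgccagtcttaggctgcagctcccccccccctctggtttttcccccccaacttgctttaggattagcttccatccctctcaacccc
The windows differ in base composition: over all 300 bases, GC made up 70% of the upstream Rarg promoter and 51.7% of the downstream one, 57.7% of Rarb and 49.7% of Nr2f2, against a median of 59.3% over the 61 receptor promoters and 52.7% over all. A match describes letters in a window, not a bound site.

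Levels are given in TPM, which is scaled to gene length and so allows genes to be compared with each other. Values are those of replicate 1 and then replicate 2, and means carry the SD over both libraries (n = 2). A gene was counted as detected at 1 TPM or more in both libraries. Expected counts totalled 35255968 and 38706236 per library, with 34261328 and 37900132 on mouse genes, and at that depth 3 counts on 2000 nt came to 0.0653 and 0.0602 TPM, so levels of a few hundredths rest on a handful of reads. Marker lists of nephron progenitors, proximal tubule, collecting duct and stroma, with 6 genes each, were detected in full. Markers of neighbouring tissue were present too: 7 of 8 adrenal cortex, 7 of 8 liver, 4 of 6 neural and 2 of 8 gonad genes were detected. In bulk tissue, fewer cells of a type and less RNA per cell cannot be told apart.

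Of the 44 receptor genes 31 were detected (70.5%), beside 34.7% of all mouse genes and 62.2% of protein-coding genes. Another 2, Pgr and Nr0b1, reached 1 TPM only in replicate 2, and 11 stayed below 1 TPM in both. A total of 11 receptors reached 10 TPM in both libraries and 7 reached 30 TPM. Shares of all genes at these higher levels were not taken. The median over the 31 detected receptors was 8.16 and 8.70 TPM, below the 20.7 and 20.7 TPM of detected protein-coding genes. The median over all 44 was 3.68 and 3.84 TPM, below the median of all protein-coding genes, which was 5.43 and 5.46 TPM. Together the receptors summed to 584.9 and 585.1 TPM, and the 6 highest held 59.3% and 60.5% of it. Those 6 were Nr2f2, Nr1h2, Nr2f6, Rxrb, Nr3c1 and Rarb, so an orphan receptor of the COUP-TF subfamily led, ahead of an oxysterol receptor. Along the order of the 44 means, 23 of 43 neighbouring pairs had library values that overlapped. The steps from Nr2f2 to Nr1h2, Nr2f6, Rxrb and Nr3c1 did not overlap, whereas those from Nr3c1 to Rarb and on to Esrrg did. Within each library Nr3c1 was above Rarb and Rarb above Esrrg, but their deposited bounds overlapped.

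**Figure D1:**
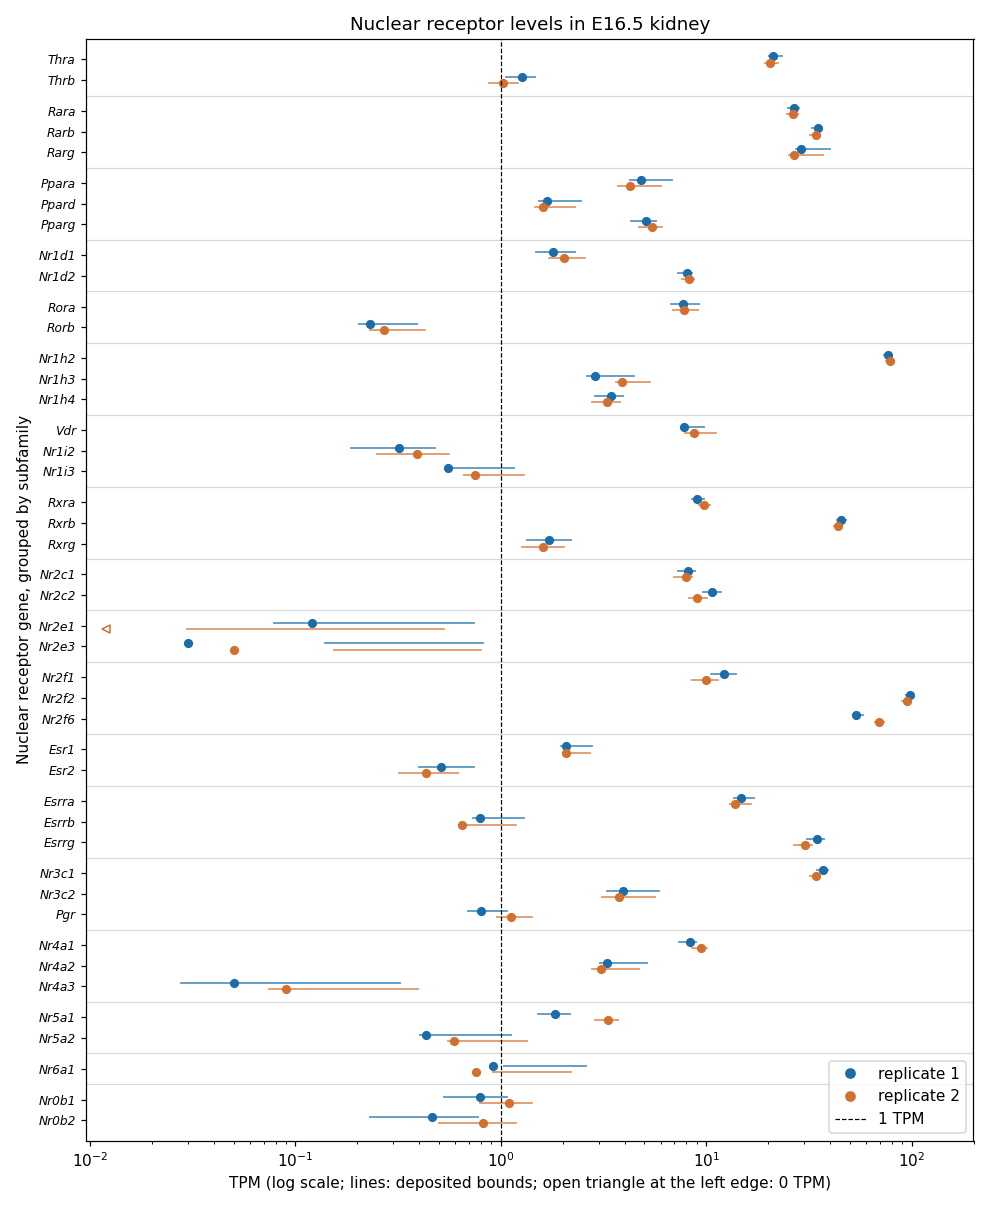
TPM of the 44 nuclear receptor genes on a log axis, by subfamily, with replicate 1 in blue, replicate 2 in orange and the deposited lower and upper bounds as lines. Nr2f2 lies farthest to the right at 98.7 and 94.4 TPM, 13 genes fail the dashed line at 1 TPM in at least 1 library, and the point estimates of Nr2e3 and Nr6a1, and of Nr2e1 in replicate 2, lie below their own bounds.

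In most subfamilies 1 gene led clearly. In the 17 subfamilies with 2 or more members the highest gene held a median of 80.3% of the summed TPM in replicate 1 and 80.4% in replicate 2, and it was the same gene in both libraries in 16. The exception was the pair Nr2e1 and Nr2e3, where neither was detected. At least 1 member was detected in 15 of 18 subfamilies and every member in 8. The 8 include the retinoic acid, retinoid X, thyroid hormone and PPAR subfamilies, while no steroid receptor subfamily was detected in full.

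The RXRs are the shared dimer partners, and Rxrb was the main one. Rxrb stood at 45.5 and 43.8 TPM (44.7 ± 1.22), Rxra at 9.04 and 9.73 TPM (9.39 ± 0.488), and Rxrg at 1.71 and 1.61 TPM. The libraries of the 3 genes did not overlap, and Rxrb held 80.9% and 79.4% of the RXR total. Rxrb came as coding transcripts that start 589 bp apart. Rxrb-202, with 410 codons, had 24.4 and 27.6 TPM, and the longer Rxrb-201, with 524 codons and the upstream start, had 16.9 and 12.8 TPM. The shorter form was 1.45-fold above the longer in replicate 1 and 2.16-fold in replicate 2. Rxra was assigned wholly to 1 transcript, Rxra-201.

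The RARs, which switch genes on when all-trans retinoic acid binds, were all well expressed. Rarb had 35.1 and 34.2 TPM (34.7 ± 0.672), Rarg 29.0 and 26.8 TPM (27.9 ± 1.61), and Rara 26.6 and 26.4 TPM (26.5 ± 0.156). Rarb was above Rarg and Rarg above Rara in both libraries, with shares of 38.7%, 32.0% and 29.3% in replicate 1. The deposited bounds of Rarg, 27.5 to 40.2 and 25.4 to 36.9 TPM, overlapped those of Rarb and of Rara in each library. The order of Rarg and Rara turns on complete coding transcripts alone, where Rarg came to 25.8 and 24.9 TPM and Rara to 26.6 and 26.2 TPM, because the incomplete model Rarg-204, with 4 codons, took 3.23 and 1.86 TPM. The RAR total of 90.8 and 87.3 TPM exceeded the RXR total of 56.3 and 55.1 TPM.

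All Rarb counts fell on Rarb-201, the transcript of 448 codons that starts within 100 nt of the promoter with the printed repeat. The tables list no other transcript of Rarb, so use of its other promoters was not measured. Exons of Top2b on the opposite strand cover 34.1% of the exonic bases of Rarb, taken over all annotated exons, and Top2b had 46.1 and 41.8 TPM. Overlap with the exons of Rarb-201 alone was not measured. The Rarb counts, 2367 and 2501, were whole numbers to within 0.005, and the Top2b counts, 5663 and 5643, were whole too. A part of Top2b reads in the Rarb counts was not tested. Rarg was split between both printed promoters: Rarg-202 from the downstream start, with 447 codons, had 15.4 and 15.2 TPM, and Rarg-201 from the start 11017 bp upstream, with 458 codons, had 10.4 and 9.70 TPM. The downstream form led 1.48-fold and 1.57-fold, and the deposited bounds of the forms did not overlap in either library. Rara was shared by 3 coding transcripts. Rara-204, with 462 codons, had 10.2 and 9.22 TPM, Rara-202, with 459 codons and a start 22714 bp downstream of it, had 9.84 and 9.79 TPM, and Rara-203 had 6.47 and 7.19 TPM. Their bounds overlapped, and the leading form changed between the libraries.

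Of 11 listed genes that supply, bind or clear retinoic acid 10 were detected, with medians of 28.0 and 22.5 TPM. Aldh1a2, the main embryonic enzyme that makes retinoic acid, had 268 and 279.6 TPM (273.8 ± 8.24), and Aldh1a3 had 39.8 and 36.5 TPM. Dhrs3, which turns retinaldehyde back to retinol, had 171 and 182 TPM. The degrading enzymes were low, with Cyp26b1 at 3.73 and 3.44 TPM, Cyp26a1 at 1.46 and 2.28 TPM, and Cyp26c1 at 0.11 and 0.10 TPM.

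Of the thyroid hormone receptors, Thra had 21.2 and 20.5 TPM (20.8 ± 0.537) and Thrb 1.27 and 1.03 TPM (1.15 ± 0.170), so Thra held 94.4% and 95.2% of the pair. The larger share of Thra was a form that does not bind hormone. Thra-201, with 492 codons, encodes the alpha2 protein, whose altered C-terminus cannot bind hormone, and had 12.3 and 12.1 TPM, while Thra-202, with 410 codons, encodes the hormone-binding alpha1 receptor and had 6.91 and 6.26 TPM. Alpha2 was 1.78-fold and 1.94-fold above alpha1 and their bounds did not overlap. The exons of Thra and Nr1d1 overlap on opposite strands over 263 nt, 5.70% of the exonic bases of Thra. Counts of both genes were not whole, at 1050.43 and 1101.24 for Thra and 107.57 and 131.76 for Nr1d1. Reads may therefore have been divided between them. The deiodinases that activate or inactivate the hormone were below 1 TPM: Dio1 at 0.55 and 0.40, Dio2 at 0 and 0.13, and Dio3 at 0.11 and 0.27 TPM. The transporter Slc16a10, at 5.40 and 5.81 TPM, was the detected gene of the 5 in that list.

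**Figure D2:**
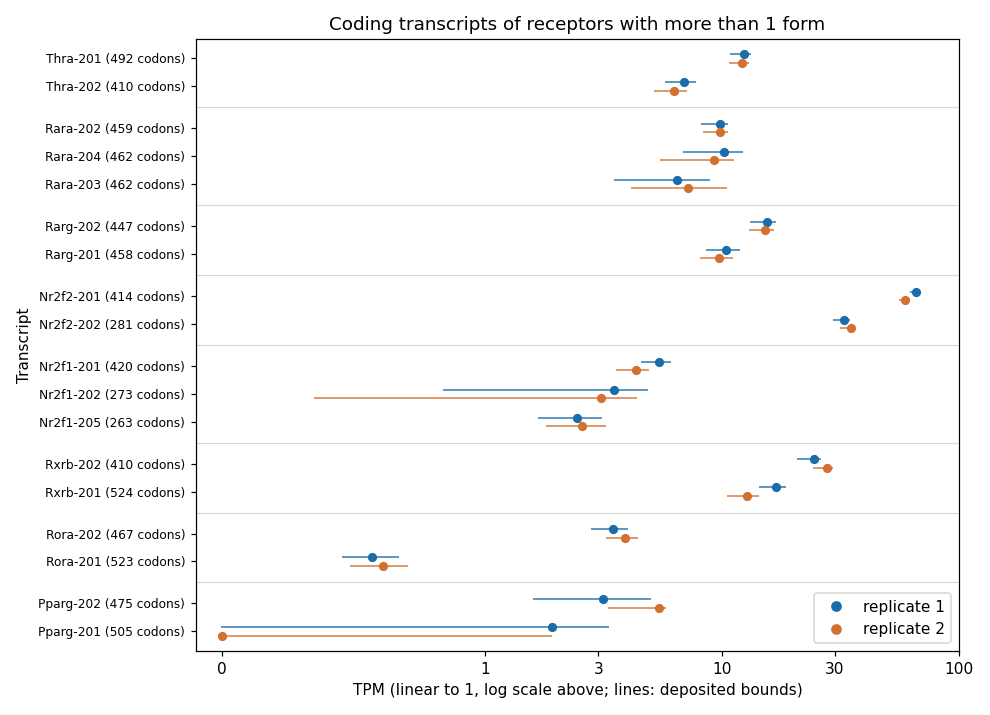
TPM of the main coding transcripts of 8 receptor genes, on an axis that is linear to 1 and logarithmic above, with replicate 1 in blue, replicate 2 in orange and deposited bounds as lines. The bounds of Thra, Rarg, Nr2f2, Rxrb and Rora forms are apart within each library, while those of Rara overlap and those of Pparg-201 reach from 0 to 3.29 TPM in replicate 1.

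The vitamin D receptor Vdr had 7.82 and 8.70 TPM (8.26 ± 0.622) and made up 88.4% of its subfamily in replicate 2 and slightly more in replicate 1. Its xenobiotic-sensing relatives were not detected. Nr1i2, the pregnane X receptor, had 0.32 and 0.39 TPM, and Nr1i3, the constitutive androstane receptor, had 0.55 and 0.75 TPM. Exons of Tomm40l on the opposite strand cover 74.9% of the exonic bases of Nr1i3, Tomm40l had 32.6 and 36.6 TPM, and the counts of Nr1i3 were not whole, so its level is uncertain. All 7 vitamin D genes were detected. Cyp27b1, which makes the active hormone, had 26.7 and 45.1 TPM, and Cyp24a1, which degrades it, had 2.62 and 3.37 TPM. The calcium-binding proteins S100g and Calb1, known targets in renal tubules, had 284.1 and 420.8 TPM and 139.2 and 131.2 TPM. Of the PXR and CAR response list 2 of 5 were detected, led by the general electron donor Por at 88.0 and 88.6 TPM, while the classical targets Cyp2b10 and Cyp3a11 had at most 0.14 TPM.

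The PPARs, receptors for fatty acids, were all detected at low levels. Pparg had 5.08 and 5.43 TPM (5.26 ± 0.247), Ppara 4.79 and 4.23 TPM (4.51 ± 0.396), and Ppard 1.67 and 1.61 TPM (1.64 ± 0.0424). The order held in both libraries, but the deposited bounds of Pparg and Ppara overlapped in each. The assignment of Pparg to its coding forms did not hold: Pparg-202, with 475 codons, had 3.15 and 5.43 TPM, and Pparg-201, with 505 codons and a start 61115 bp downstream, had 1.92 TPM in replicate 1 and was listed at 0 in replicate 2. The bounds of Pparg-201 ran from 0 to 3.29 TPM and from 0 to 1.90 TPM, so the difference lies within them. All 9 genes of the PPAR response list were detected, with medians of 37.8 and 41.0 TPM. The lipid-binding proteins Fabp4 and Fabp3 and the acyl-CoA dehydrogenase Acadm were its highest, at 219.9 ± 4.16, 122.4 ± 17.8 and 121.1 ± 5.88 TPM.

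Among the sterol and bile acid receptors, Nr1h2, which encodes LXR beta, was the second highest receptor gene, at 76.6 and 78.1 TPM (77.3 ± 1.03). It held 92.4% and 91.6% of its subfamily. Nr1h3, LXR alpha, had 2.87 and 3.90 TPM, and Nr1h4, the bile acid receptor FXR, had 3.42 and 3.30 TPM. Nr1h2 was divided between Nr1h2-204, at 28.5 and 35.0 TPM, and Nr1h2-203, at 26.4 and 28.8 TPM, with 446 and 443 codons and bounds that overlapped. Of the LXR and FXR response list 7 of 8 were detected. Lpcat3, which remodels phospholipids, had 72.7 and 81.8 TPM, and Srebf1, the regulator of fatty acid synthesis, 50.4 and 42.7 TPM. Abcb11, the hepatic bile salt pump, had 0.01 and 0.05 TPM.

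Rev-erbs repress and RORs activate at shared elements of clock genes. Nr1d2 had 8.09 and 8.27 TPM and Nr1d1 1.79 and 2.02 TPM, so Nr1d2 held 81.9% and 80.4% of the pair. Rora had 7.74 and 7.81 TPM (7.78 ± 0.0495) and Rorb 0.23 and 0.27 TPM. The leading Rora transcript was Rora-202, with 467 codons and 3.46 and 3.89 TPM. Rora-201, with 523 codons and a start 635896 bp upstream, had 0.57 and 0.61 TPM, 6.07-fold and 6.38-fold less. The noncoding Rora-204 held 26.3% and 20.5% of the gene and, like Rora-201, starts within 100 nt of the upstream promoter's start site. The folds between Rora-202 and Rora-201 thus compare coding forms, not start sites. On complete coding transcripts alone Rora came to 4.03 and 4.50 TPM. Of 9 clock partners 8 were detected, with medians of 6.41 and 6.33 TPM. Cry1, Cry2 and Nfil3 were the highest, at 22.8 ± 1.97, 19.1 ± 1.34 and 18.4 ± 0.566 TPM.

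The COUP-TFs, orphan receptors of stroma, vessels and nervous system, formed the largest subfamily total, at 164.4 and 173.9 TPM. Nr2f2 (chr7:70351944-70366735, minus strand) had 98.7 and 94.4 TPM (96.5 ± 3.05), above 91.9% of protein-coding genes. Nr2f6 had 53.5 and 69.5 TPM (61.5 ± 11.4), the widest spread among the high receptors, and Nr2f1 had 12.2 and 9.96 TPM (11.1 ± 1.61). Exons of Ocel1 on the opposite strand cover 54.4% of the exonic bases of Nr2f6, and Ocel1 itself had 5.06 and 5.15 TPM. The counts of both genes were not whole, so the level of Nr2f6 is uncertain.

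The short form of Nr2f2 held 33.2% and 37.0% of the gene's TPM. Nr2f2-201, with 414 codons, encodes the full receptor and had 65.9 and 59.5 TPM, and Nr2f2-202, with 281 codons and a start 6142 bp upstream, encodes a form without the DNA-binding domain and had 32.8 and 34.9 TPM. The full form was 2.01-fold and 1.70-fold above the short form, whose promoter is the one printed. Nr2f1 was shared by Nr2f1-201, with 420 codons and 5.41 and 4.31 TPM, and 2 shorter forms, Nr2f1-202 at 3.49 and 3.08 TPM and Nr2f1-205 at 2.44 and 2.57 TPM. The bounds of Nr2f1-202, 0.844 to 4.80 and 0.351 to 4.31 TPM, overlapped those of Nr2f1-201 and of Nr2f1-205 in each library. Noncoding RNA genes overlap Nr2f2 and Nr2f1 on the opposite strand, and without strand the reads within an overlap cannot be told apart. Counts were whole for Nr2f2, at 7413 and 7473, and for its neighbour B130024G19Rik, at 1397 and 1517. In replicate 1 they were not whole for Nr2f1, at 590.62, and its neighbour A830082K12Rik, at 370.38. A part of the neighbours' reads in the receptor counts was not tested. B130024G19Rik, which overlaps Nr2f2 on the opposite strand by 643 nt, had 25.1 and 28.3 TPM, and A830082K12Rik, which overlaps Nr2f1 by 123 nt, had 13.0 and 11.5 TPM. Markers of venous and lymphatic endothelium, where Nr2f2 is known to act, were detected for 5 of 6 genes, led by Aplnr at 102.2 and 105.4 TPM. Prox1 was not detected, at 1.02 and 0.74 TPM. The list had medians of 8.93 and 8.74 TPM, and the stroma list had 186.2 and 192 TPM. Which cells held Nr2f2 was not measured.

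The other orphan receptors of the NR2 group were lower. Nr2c2 had 10.7 and 9.00 TPM and Nr2c1 had 8.16 and 7.93 TPM. Exons of Mrps25 on the opposite strand cover 30.7% of the exonic bases of Nr2c2, Mrps25 had 76.9 and 80.6 TPM, and the counts of both genes were not whole, so the level of Nr2c2 is uncertain. In replicate 1 the leading Nr2c2 transcript was Nr2c2-203, an incomplete model with 4 codons, at 5.50 TPM, and in replicate 2 it was the full Nr2c2-201, with 596 codons, at 4.47 TPM. On complete coding transcripts alone Nr2c2 came to 5.18 and 5.05 TPM, below Nr2c1. Nr2e1 and Nr2e3, receptors of neural and photoreceptor progenitors, had 3 and 0 counts and 1 and 2 counts, too few to give a level. Nr6a1, the germ cell nuclear factor, had 0.92 and 0.76 TPM.

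The estrogen-related receptors bind no estrogen and drive mitochondrial genes with the coactivator Ppargc1a. Esrrg had 34.8 and 30.1 TPM (32.5 ± 3.28), Esrra 14.8 and 13.9 TPM (14.3 ± 0.686), and Esrrb 0.79 and 0.65 TPM. The lead of Esrrg rested on short transcript models. Esrrg-205, a noncoding model of 507 nt, had 15.7 and 12.3 TPM from 147 and 125 counts, while the complete Esrrg-201, with 458 codons, had 9.70 and 9.99 TPM from 1157 and 1293 counts. On complete coding transcripts alone, Esrrg came to 11.9 and 11.1 TPM, below Esrra at 12.8 and 13.3 TPM. Ppargc1a had 21.7 and 19.1 TPM.

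Among steroid receptors, the glucocorticoid receptor gene Nr3c1 was the highest, at 37.2 and 34.3 TPM (35.7 ± 2.06). The mineralocorticoid receptor gene Nr3c2 had 3.93 and 3.78 TPM (3.86 ± 0.106), and the progesterone receptor gene Pgr had 0.80 and 1.12 TPM. The estrogen receptor genes Esr1 and Esr2 had 2.08 and 2.07 TPM, and 0.51 and 0.43 TPM. Nr3c1 and Nr3c2 were led by models without a complete coding sequence. Nr3c1-208 had 20.4 and 15.8 TPM from 841 and 707 counts, against 13.1 and 11.3 TPM from 1904 and 1787 counts on the complete Nr3c1-203. Nr3c2-206, of 612 nt, had 2.17 and 2.33 TPM from 25.5 and 29.8 counts, against 0.70 and 0.85 TPM from 89.5 and 118.4 counts on the complete Nr3c2-203. On complete coding transcripts alone Nr3c1 came to 14.1 and 16.5 TPM and Nr3c2 to 0.95 and 0.85 TPM.

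All 8 corticosteroid genes were detected. Hsd11b2, which inactivates glucocorticoid in mineralocorticoid target cells, had 32.6 and 33.0 TPM (32.8 ± 0.255), and Hsd11b1, which regenerates it, had 2.14 and 3.91 TPM. The response genes Tsc22d3 and Sgk1 were the highest of the list, at 96.7 ± 8.99 and 82.0 ± 8.44 TPM. The chaperones that hold steroid receptors were abundant, with 6 of 6 detected. Hsp90ab1 led at 1640 and 1591 TPM. Of the estrogen and progesterone response list 3 of 6 genes were detected, with Wnt4, which is also a nephrogenic signal, at 8.81 and 6.67 TPM.

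The Nr4a receptors are immediate early genes that need no ligand. Nr4a1 had 8.33 and 9.47 TPM (8.90 ± 0.806), Nr4a2 3.27 and 3.07 TPM, and Nr4a3 0.05 and 0.09 TPM from 2 and 9 counts. Nr5a1, which drives steroid synthesis in adrenal and gonad, had 1.83 and 3.32 TPM, and its relative Nr5a2 had 0.43 and 0.59 TPM. The receptors that lack a DNA-binding domain were low: Nr0b1, which represses Nr5a1 targets, had 0.79 and 1.10 TPM, and Nr0b2, the small heterodimer partner induced by FXR, had 0.46 and 0.82 TPM.

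Coactivators and corepressors were detected in full, 10 of 10 and 8 of 8. Coactivators had medians of 19.7 and 17.6 TPM, with Med1, the Mediator subunit that contacts liganded receptors, at 55.5 and 54.2 TPM. Corepressors had medians of 48.8 and 52.7 TPM, with Hdac3, the deacetylase of the corepressor complex, at 112.2 and 120.1 TPM. Ncor1, the scaffold of that complex, differed most between the libraries, at 52.1 and 85.5 TPM. These medians exceeded the receptor medians, but the lists hold genes chosen as known partners and were not compared by a test.

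**Figure D3:**
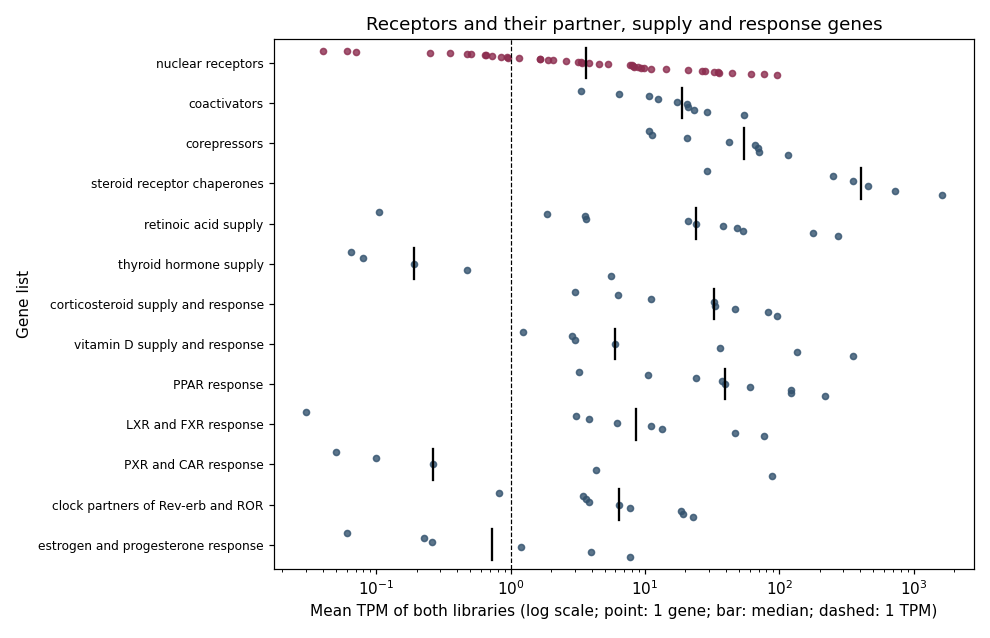
Mean TPM of both libraries on a log axis for the 44 receptors and 12 lists of partner, ligand supply and response genes, with 1 point per gene and a black bar at the median. Chaperones lie highest, reaching 1616 TPM, and the medians of the thyroid hormone supply, PXR and CAR response, and estrogen and progesterone response lists lie below the dashed line at 1 TPM.

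The form of the transcripts mattered for a few receptors. The leading transcript by TPM was the same in both libraries for 27 of 31 detected receptors, beside 93.9% of detected protein-coding genes. Rarb and Nr4a1 have a single deposited transcript, so theirs could not differ, and the background was not filtered for such genes. The 4 that differed were Rara, Ppara, Rxrg and Nr2c2. Ranking by counts in place of TPM gave another leader in at least 1 library for 6 of 31, Rara, Nr1h2, Nr2c2, Esrrg, Nr3c1 and Nr3c2, beside 10.6% of such genes. A model without a complete coding sequence led in both libraries for 3 of 31, Esrrg, Nr3c1 and Nr3c2, beside 7.42%. The same 3 had under 50% of their TPM on complete coding transcripts, beside 11.5%. Most of their counts did fall on complete coding transcripts, 87.9% for Esrrg, 72.9% for Nr3c1 and 60.4% for Nr3c2. TPM weighs short models more than counts do. The receptor counts were small, and none of these shares was tested against the background.

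**Figure D4:**
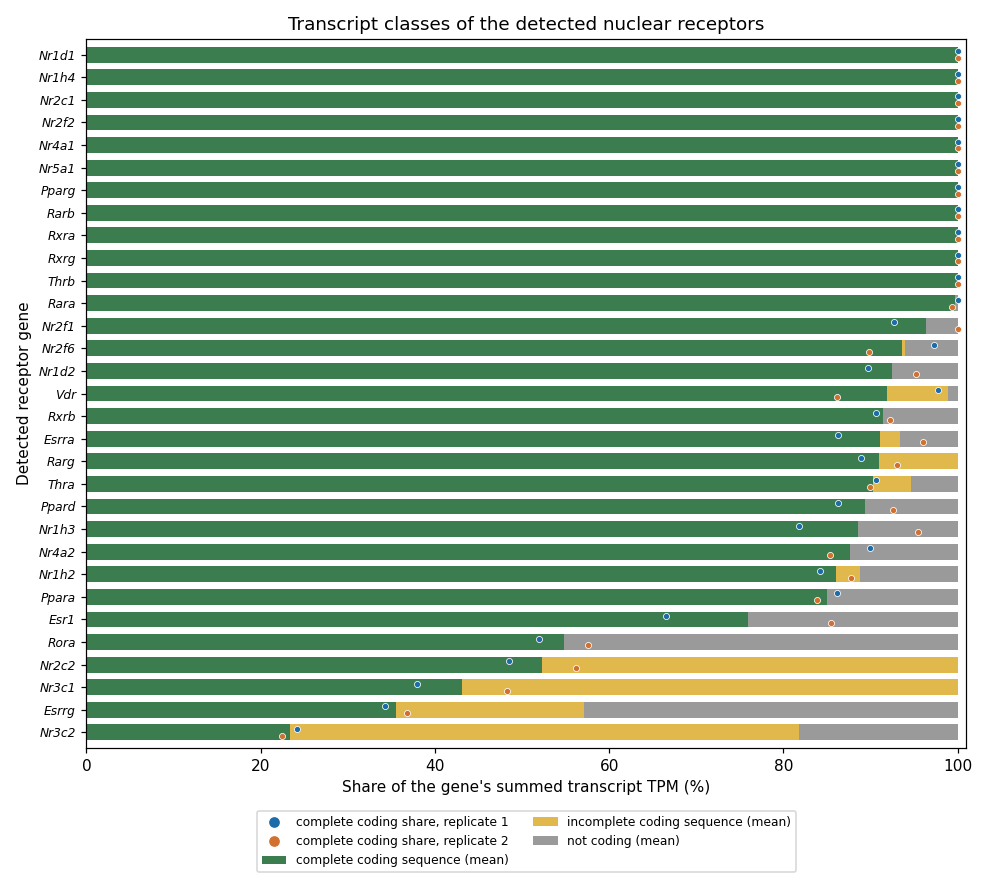
Percent of each detected receptor's summed transcript TPM on complete coding (green), incomplete coding (yellow) and noncoding (grey) transcripts, as the mean of both libraries, with points for the complete coding share per library. The median receptor lay at 91.6%, and Esrrg, Nr3c1 and Nr3c2 lay at 35.4%, 42.9% and 23.3%.

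With complete coding transcripts alone the receptors summed to 495.8 and 508.4 TPM, and the order near the top changed. Nr3c1 moved from rank 5 to 9, Esrrg from 7 to 11 and Nr3c2 from 22 to 32, and Nr3c2 was then the only detected receptor to drop below 1 TPM in a library. Nr2f2, Nr1h2, Nr2f6 and Rxrb kept ranks 1 to 4. The highest gene was the same in 14 of 17 subfamilies, with Esrra in place of Esrrg, Nr2c1 in place of Nr2c2, and Nr2e3 in place of Nr2e1.

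The pools differed little in their receptors. The log2 ratio of replicate 1 over replicate 2 was taken from rounded counts for the 38 receptors that averaged at least 1 CPM, which is counts scaled to library size. Only 1 of 38, Nr5a1, differed by over 1.5-fold, beside 5.81% of 15363 genes. The median absolute log2 ratio was 0.11 for the receptors and 0.11 for all genes, and 19 receptors were higher in each pool. Scaling to the spike-ins instead moved the median log2 ratio of all genes from -0.01 to -0.43, so directions hold relative to the bulk of genes, and 8 receptors then passed 1.5-fold beside 17.7% of all genes. With 1 pool on each side these ratios have no replicate check.

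Nr5a1 had 120 and 236 counts and a log2 ratio of -0.85, with a 95% counting interval from -1.19 to -0.53. That is 1.80-fold more in replicate 2. Markers of the adrenal cortex moved with it. Of the 8, 4 were over 1.5-fold higher in replicate 2, namely Hsd3b1, Cyp11a1, Star and Cyp11b2, and 7 of 8 were higher there, with a median log2 ratio of -0.66. The summed TPM of the list was 194.2 in replicate 1 and 254.7 in replicate 2. Mc2r went the other way, at 3.30 and 2.28 TPM. Of the gonad list, the 5 genes with counts were higher in replicate 2, with summed TPM of 7.80 and 22.8, and Cyp17a1 had 0.03 and 5.99 TPM, while Dmrt1, Foxl2 and Fshr were at 0 in both. The part of these markers in the Nr5a1 values was not tested.

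Counting intervals excluded 0 for 7 of the 38 receptors, beside 42.4% of all genes compared. Besides Nr5a1 there were 6, all within 1.5-fold. Nr1h3, at a log2 ratio of -0.47, Nr2f6, at -0.30, and Nr4a1, at -0.19, were higher in replicate 2, and Nr2f1, at 0.22, Esrrg, at 0.12, and Nr2f2, at 0.11, were higher in replicate 1, an order that turns under spike-in scaling. Such intervals cover counting error only, so they do not speak to the spread between embryos. The 6 receptors below the count filter were Nr1i2, Nr2e1, Nr2e3, Esr2, Nr4a3 and Nr0b2, and none of them was detected.

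Other marker lists also differed in level between the pools. All 7 liver markers with counts were higher in replicate 2, with a median log2 ratio of -0.32 and none over 1.5-fold, and 4 of 6 macrophage markers were higher there. Markers of the kidney's own cells moved as well: 6 of 6 proximal tubule genes were higher in replicate 2, with a median log2 ratio of -0.21, and nephron progenitor genes had a median of 0.19, which turns under spike-in scaling, with 2 of 6 higher in replicate 2. Neural markers leaned to replicate 1, with a median log2 ratio of 0.33 that turns under spike-in scaling, and 1 of 6, Tubb3, was over 1.5-fold. The part of any of these lists in the receptor values was not tested.

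**Figure D5:**
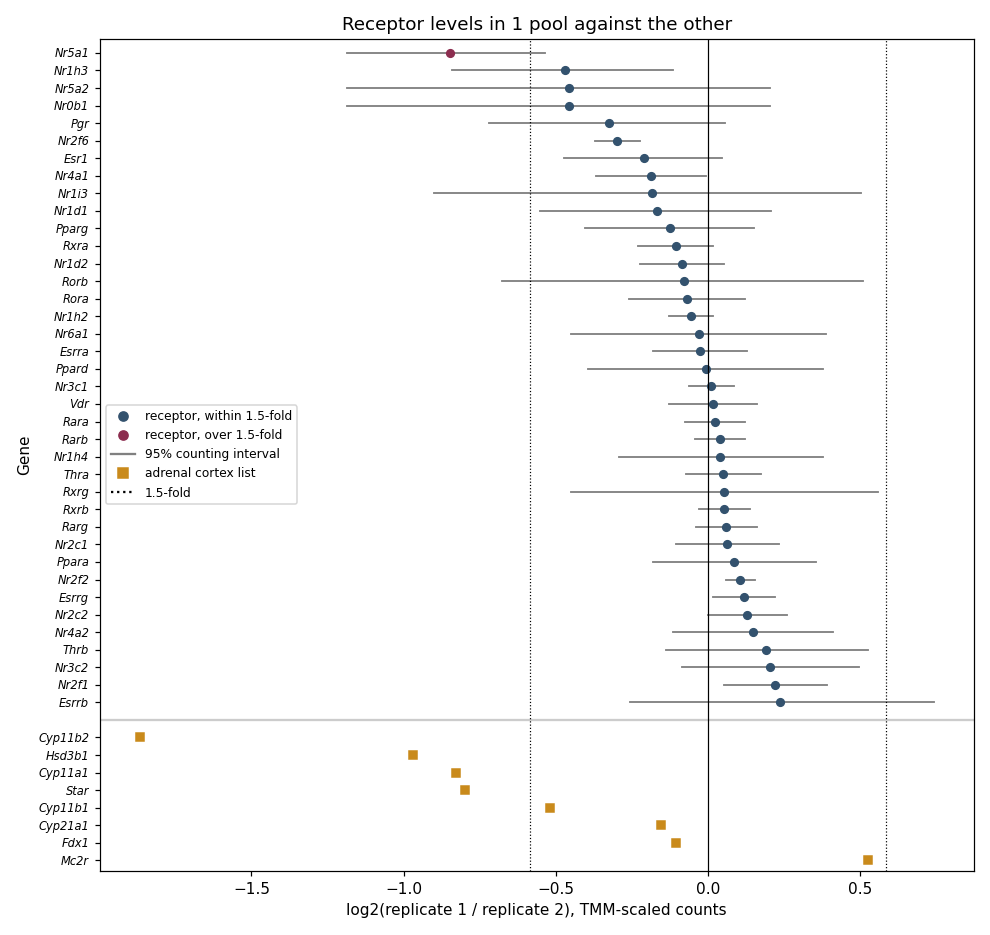
log2 ratio of replicate 1 over replicate 2 after TMM scaling for 38 receptor genes (circles, with 95% counting intervals as lines) and the 8 adrenal cortex markers (squares), with dotted lines at 1.5-fold. Nr5a1 at -0.85 is the only receptor beyond the dotted lines, on the side of the 4 adrenal markers that pass them.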

How the data were processed

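Total RNA over 200 nt was prepared from pooled kidneys, with 10 ng per library and external spike-ins, per the labels' protocols. The deposited text notes name mm10 as the assembly and M4 as the annotation. Not given in the sources used here are the aligner, quantifier and strandedness. Reads of genes that overlap on opposite strands therefore cannot be told apart. The authors deposited, per gene and transcript, expected counts that need not be whole, TPM and FPKM scaled to length and library size, and posterior mean TPM. The deposited lower and upper TPM bounds were read as signal values of 0 or more. The deposited percent that a transcript takes of its gene was also used. Spike-ins took 2.82% and 2.08% of counts.

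Names, coordinates and transcript classes were joined by stable identifier to GENCODE M21 (GRCm38), and 213 of 232 receptor transcripts had the same length there. Exonic overlaps between genes were taken over all exons annotated there. A complete coding transcript is a protein-coding model not tagged as truncated. For the pools, expected counts were rounded and TMM factors taken from edgeR 4.0.16 under R 4.3.3, with a prior count of 2, and intervals are exact binomial (Clopper-Pearson) at 95% on the share of counts. Intervals and floors cover counting error only. DESeq2 1.42.0 size factors were an alternative. Python 3.11.15 with pandas 2.3.3, numpy 2.4.6, scipy 1.17.1 and matplotlib 3.10.9 did the rest, and the ratio and interval code was tested on simulated data. The receptors and the gene lists were chosen with earlier results of these data known, so no test was run over them. All 44 receptors are named. Some list genes were taken out of their lists and are not reported here. Other list genes are named where they supply, remove or bind a receptor's ligand, bind the receptor or are among the 3 highest of their list, and transcripts are named where they lead or hold 20% of a gene in both libraries. Rora-201, Pparg-201, Nr3c2-203, Nr2f1-205, overlapping and neighbouring genes, marker genes and low response genes were named after their values were seen.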

Additional observations from a re-analysis of the deposited data

How the results depend on the processing

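The 44 receptors gave between 26 and 41 detected genes over the 10 alternatives to 1 TPM, all within 1.5 times the 31 reported, and the leading transcript was the same in both libraries for 26 to 28 of 31 genes over 4 alternatives and for 18 of 20 at a filter of 5 TPM. The median receptor level, 3.62 TPM over the mean of both libraries, was 2.34 as FPKM, 4.205 as posterior mean TPM, 3.83 after rescaling over mouse genes and 3.20 on complete coding transcripts, and 3.68 to 3.84 with 1 library left out. The median share of the leading gene, 80.2%, was 75.6% by posterior mean TPM, 78.7% on complete coding transcripts, and 80.3% to 80.4% with 1 library left out. The count of receptors over 1.5-fold between the pools, 1, became 8 when scaled to spike-in totals, a scaling that moves the median log2 ratio of all genes to -0.43 and puts 17.7% of them over 1.5-fold. It became 4 without the count filter, where 22.8% of genes pass, and 0 at 2-fold, where 2.32% do. The complete coding alternative was chosen after seeing the data. For the pools and the leading transcripts no library could be left out, because both compare the libraries. No paired analysis was possible because there is 1 group. Depth limits Nr2e1, Nr2e3 and Nr4a3, with at most 9 counts.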

Other observations

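Genes annotated at or beside receptor loci had levels of their own, although reads of overlapping genes on opposite strands cannot be told apart. Gm20427, whose start lies 232 bp from that of Rxrb, had 2.84 and 2.62 TPM. Nr6a1os, an antisense gene at the Nr6a1 locus, had 13.2 and 9.58 TPM, above the 0.92 and 0.76 TPM of Nr6a1 itself. Ostm1, whose start lies 190 bp from that of Nr2e1, had 14.9 and 15.6 TPM, while Nr2e1 had 0.12 and 0.00 TPM.

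The deposited point estimate lay outside its own bounds in at least 1 library for 3 receptors, Nr2e1, Nr2e3 and Nr6a1. Nr6a1 had 0.92 TPM in replicate 1 beside bounds of 1.04 and 2.58 TPM.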
